A study of Sus scrofa with 27 samples.

Results

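The interleukin-6 (IL-6) family and its signalling axis through STAT3 were followed in lungs kept alive outside the body, over 10 genes chosen by symbol from the deposited gene counts. These are the ligands IL6, LIF, IL11 and OSM, the receptor chains IL6R, OSMR and LIFR, the shared chain IL6ST, the transcription factor STAT3 and its inhibitor SOCS3. All 10 symbols were found among the 31908 genes of the table, and each of them had at least 10 counts in at least 1 of the 27 libraries, so none was dropped.

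Ligands of this family bind a receptor chain of their own (IL6R for IL-6; OSMR or LIFR for oncostatin M and leukemia inhibitory factor) together with gp130, the signalling chain encoded by IL6ST. Kinases of the JAK family attached to these chains then phosphorylate STAT3, which enters the nucleus and turns on genes of the acute phase response and cell survival, among them SOCS3, whose protein binds gp130 and stops the signal. In the lung the family is known from acute injury and from epithelial repair, with IL6 made by endothelium, fibroblasts, epithelium and macrophages.

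Ex vivo lung perfusion (EVLP) ventilates and perfuses a donor lung at a warm temperature before transplantation. Pig lungs were perfused for 12h without blood cells in the perfusate, and the question was whether a dialysis circuit changes the tissue response compared with the routine exchange of perfusate. In the Gold Standard (GS) group, 5 lungs received fresh Steen solution at intervals, and in the Pediatric Dialysis (PD) group, 4 lungs had the perfusate dialyzed by a hemodialyzer designed for children. All lungs of both groups came from Large-White pigs after circulatory death, underwent the same cold ischemia, and were perfused with Steen solution that contained methylprednisolone, cefuroxime and heparin. Both groups thus received the glucocorticoid methylprednisolone, whose level at 6h and 12h is not given, and the PD lungs had served in an earlier study of the same team. Each lung was biopsied at 0h (after cold ischemia and before perfusion), 6h and 12h. Lungs are named by group and pig number (GS 9, 17, 44, 55 and 77; PD 2, 3, 4 and 5), and no age was given in the labels.

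Total counts were 26335584 to 67522703 per library in GS and 14650700 to 21820935 in PD, so no PD library was as deep as any GS library and the sequencing depth cannot be told apart from the group. Within GS, pigs 9 and 17 had shallower libraries (up to 41802541 counts) than pigs 44, 55 and 77 (from 51708598). The library of PD pig 2 at 12h stood apart, with the lowest total and 18979 genes detected. Its summed neutrophil and red cell markers, 1520 and 363 CPM, were the highest of all 27 libraries. So were its sums for alveolar type 2 (88368 CPM), alveolar type 1 (2548 CPM) and smooth muscle markers (3081 CPM). Markers of lung epithelium, endothelium and fibroblasts were present in every library. At 0h the summed neutrophil markers spanned 149 to 395 CPM in GS and 624 to 1245 CPM in PD (5 of 6 markers matched, MPO at 0 counts in PD), the red cell markers 0.355 to 10.4 and 51.7 to 237 CPM, and the alveolar type 2 markers 6524 to 9242 and 26022 to 77066 CPM. Endothelium markers spanned 1790 to 2734 CPM in GS and 1364 to 1489 CPM in PD. Macrophage markers spanned 1844 to 3422 and 1624 to 1815 CPM. None of these sums overlapped between the groups, and their part in the results below was not tested. SFTPC had a mean of 3579 CPM in GS and 40701 CPM in PD, whereas SFTPB, also of alveolar type 2, had 1426 and 543 CPM. The edgeR estimate was higher in PD for 2 of 4 neutrophil and 4 of 5 alveolar type 2 markers tested. So it was for 2 of 2 red cell, 1 of 5 endothelium and 3 of 6 macrophage markers. In such bulk tissue, fewer cells of a type and less RNA per cell cannot be told apart.

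The start regions of the members that were called in both groups after 12h (IL6, LIF and SOCS3) are shown, so that the letters that STAT and NF-kB factors are known to bind can be read beside the levels. Each window holds 250 bases before and 50 bases after the RefSeq start in Sscrofa11.1, written 5′ to 3′ on the gene's own strand. Capitals mark a match to the STAT letters TTCNNNGAA or to the NF-kB consensus, both searched on either strand. The windows are IL6 at chr9:91506171-91506470 (plus strand), SOCS3 at chr12:3643582-3643881 (plus) and LIF at chr14:47239464-47239763 (minus).
IL6: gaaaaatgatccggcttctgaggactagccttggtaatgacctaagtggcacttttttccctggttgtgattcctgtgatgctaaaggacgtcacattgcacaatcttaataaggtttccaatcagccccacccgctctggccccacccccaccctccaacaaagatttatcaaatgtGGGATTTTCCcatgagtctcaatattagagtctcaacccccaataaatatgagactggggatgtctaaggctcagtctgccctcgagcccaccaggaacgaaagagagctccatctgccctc
SOCS3: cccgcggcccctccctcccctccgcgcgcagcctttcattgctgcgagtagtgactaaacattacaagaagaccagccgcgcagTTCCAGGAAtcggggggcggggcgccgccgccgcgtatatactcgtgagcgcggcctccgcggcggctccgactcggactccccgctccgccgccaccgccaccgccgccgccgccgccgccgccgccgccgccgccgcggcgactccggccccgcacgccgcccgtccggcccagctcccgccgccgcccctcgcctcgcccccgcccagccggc
LIF: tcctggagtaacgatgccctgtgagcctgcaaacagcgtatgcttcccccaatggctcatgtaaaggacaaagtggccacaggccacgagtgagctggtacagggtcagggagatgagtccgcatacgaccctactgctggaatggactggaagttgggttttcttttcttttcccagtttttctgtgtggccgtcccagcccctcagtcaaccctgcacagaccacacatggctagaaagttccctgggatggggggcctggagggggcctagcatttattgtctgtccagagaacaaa

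The IL6 window held an NF-kB match that began 72 bases before the start, and 16.4% of 19531 pig promoter windows of this length hold one. SOCS3 held a STAT match 166 bases before the start, and 7.11% of all windows hold such a match. The LIF window held neither set of letters. Of the further motifs searched, AP-1 (TGANTCA, in 6.06% of windows) matched in IL11 only, 83 bases before the start, whereas the cAMP response element (TGACGTCA, 2.26%) and the TATA box (TATAAA on the gene's strand or the other, 10.9%) matched in no window of the members searched. The RefSeq and Ensembl starts lay 81 bases apart for IL6 and 97 for SOCS3, but 764 for LIF, so the LIF window does not sit at the start of the Ensembl model on which reads were counted. Among the other members searched they lay 13 to 255 bases apart, but 60150 for IL6ST, whose window also lies away from the Ensembl start. A match describes the letters only, and windows of 8 of the 10 members were searched.

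IL6, the ligand that gives the family its name, rose in both groups at both times. At 0h its level was 3.17, 0.670, 2.15, 2.33 and 1.38 CPM in GS pigs 9, 17, 44, 55 and 77, and 4.42, 0.948, 2.98 and 1.65 CPM in PD pigs 2, 3, 4 and 5. At 6h it was 3.15, 3.29, 26.1, 13.8 and 9.39 CPM in GS and 36.9, 24.3, 58.9 and 11.3 CPM in PD, and at 12h 3.83, 2.51, 11, 24.1 and 11.2 CPM in GS and 80.1, 24.6, 58.8 and 48.7 CPM in PD. The groups overlapped at 0h and 6h, while at 12h every PD lung was above every GS lung, although PD pig 3 and GS pig 55 were nearly level. Pigs 9 and 17, the GS lungs with shallower libraries, were the lowest at 6h and 12h.

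The fitted increase of IL6 in GS was 2.23 ± 0.47 (log2 fold change ± SE, n = 5) at 6h (adjusted p = 0.00436) and 2.13 ± 0.46 at 12h (adjusted p = 0.00357), by edgeR's quasi-likelihood test with the pig as a block. In PD it was 3.77 ± 0.46 (n = 4) at 6h (adjusted p = 0.0176) and 4.51 ± 0.47 at 12h (adjusted p = 0.0054) in the same edgeR analysis. Compared with its own 0h biopsy, IL6 was 18 to 29.1 times higher at 12h in the 4 PD lungs and 1.21 to 10.3 times higher in the 5 GS lungs. Among GS lungs pig 9 stayed near its 0h level (0.996 times at 6h and 1.21 times at 12h), while pig 17 was at 4.82 and 3.69 times its own. Separate fits of the GS lungs with shallower and with deeper libraries were added after seeing the data. The increase of IL6 at 12h was 2.98 ± 0.34 in pigs 44, 55 and 77 (edgeR adjusted p = 0.000296). It was 0.88 ± 0.56 in pigs 9 and 17 alone, a fit of 2 lungs (edgeR adjusted p = 0.312). The IL6 model lies inside RAPGEF5 on the other strand, whose own change at 12h was 0.05 ± 0.18 in GS and 0.52 ± 0.58 in PD (log2 ± SE, edgeR adjusted p = 0.855 and 0.631).

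**Figure D1:**
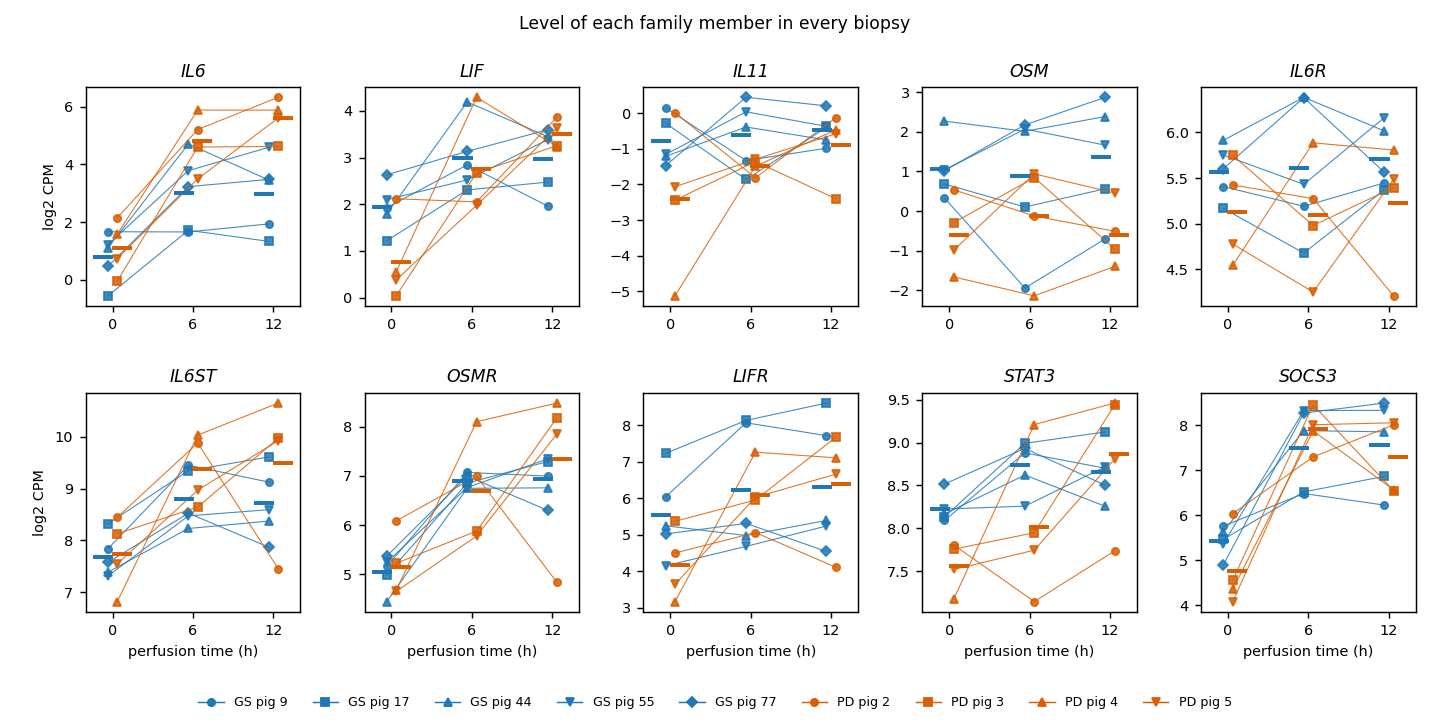
Level of each of the 10 members in every biopsy, as log2 CPM (vertical axis) against perfusion time in hours (horizontal axis). Points joined by a line are 1 lung, colours mark GS (5 lungs) and PD (4 lungs), and thick bars are group means. At 12h the PD lungs lie above the GS lungs for IL6, whereas LIFR is separated within GS, with pigs 9 and 17 above the other three lungs.

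LIF, which signals through LIFR and gp130, rose less than IL6. It stood at 3.79, 2.32, 3.46, 4.28 and 6.18 CPM at 0h in GS pigs 9, 17, 44, 55 and 77, and at 4.32, 1.0, 1.43 and 1.27 CPM in PD pigs 2, 3, 4 and 5. At 12h the values were 3.88, 5.55, 10.9, 10.4 and 12.1 CPM in GS and 14.6, 9.53, 9.38 and 12.4 CPM in PD. Thus 3 of the 4 PD lungs started below every GS lung and ended within or above the GS range, and only GS pig 9 stayed at its starting level. The edgeR log2 fold change in GS was 1.07 ± 0.29 at 6h (adjusted p = 0.0155) and 1.01 ± 0.28 at 12h (adjusted p = 0.0141), barely past the 2-fold threshold. These calls were lost without the pig as a block (log2 change of 1.14 and 1.05, edgeR adjusted p = 0.0745 and 0.0724). They were also lost with all 27 libraries in 1 fit (1.08 and 1.04, edgeR adjusted p = 0.109 and 0.0907) and without pig 44 (0.74 and 0.90). At 12h the GS call was lost without pig 17 or pig 55 as well (0.96 and 0.94). In PD the edgeR values were 2.08 ± 0.62 at 6h (adjusted p = 0.272) and 2.68 ± 0.60 at 12h (adjusted p = 0.031). The PD call at 12h was lost on the compared times alone (2.73 ± 0.46, edgeR adjusted p = 0.106), without pig 3 (2.50 ± 0.76, edgeR adjusted p = 0.221) and without pig 5 (2.45 ± 0.75, edgeR adjusted p = 0.28).

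IL11 and OSM, the remaining ligands, were scarce and were called in neither group. IL11, which has a receptor of its own besides gp130, was at 0.353 to 1.10 CPM at 0h and 0.492 to 1.14 CPM at 12h in GS, and at 0 to 0.983 and 0.162 to 0.863 CPM in PD, where its counts were too low to be tested. Among GS lungs the direction was split, since IL11 was 1.77 to 3.78 times its 0h value at 6h in pigs 44, 55 and 77 but 0.359 and 0.335 times in pigs 9 and 17. OSM, made by neutrophils and macrophages and the ligand of OSMR, changed by -0.11 ± 0.40 at 6h and 0.23 ± 0.40 at 12h in GS (log2 ± SE, edgeR adjusted p = 0.864 and 0.671). In PD its change was 0.53 ± 0.61 and -0.09 ± 0.63 (edgeR adjusted p = 0.749 and 0.949). At 12h OSM was at 0.601, 1.46, 5.22, 3.16 and 7.31 CPM in GS pigs 9, 17, 44, 55 and 77 and at 0.345 to 1.34 CPM in PD. The OSM model overlaps CASTOR1 on the same strand, so reads of these genes could have been split in counting. CASTOR1 itself changed by 0.10 ± 0.21 and -0.08 ± 0.21 in GS and by -1.34 ± 0.65 and -1.95 ± 0.67 in PD at 6h and 12h (log2 ± SE, edgeR adjusted p = 0.742, 0.777, 0.554 and 0.106), and its change at 12h differed between the groups by -1.89 ± 0.63 (edgeR adjusted p = 0.704).

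Of the receptor chains, OSMR rose in GS at both times and with little spread, whereas IL6R was called in neither group. OSMR was at 35.8, 31.7, 21.8, 38.0 and 41.4 CPM at 0h in GS pigs 9, 17, 44, 55 and 77, and at 134, 116, 108, 109 and 128 CPM at 6h (78.8 to 163 CPM at 12h). In PD pigs 2, 3, 4 and 5 it was at 67.8, 37.3, 25.5 and 25.1 CPM at 0h, 127, 58.9, 275 and 54.9 CPM at 6h, and 28.5, 291, 357 and 232 CPM at 12h. The GS values at 0h and 6h did not overlap. In PD, pigs 3 and 5 stayed below the GS range at 6h and exceeded it at 12h, and pig 2 fell below its own 0h value. The edgeR log2 fold change of OSMR was 1.82 ± 0.19 at 6h (adjusted p = 0.000134) and 1.88 ± 0.19 at 12h (adjusted p = 6.08e-05) in GS. In PD it was 1.48 ± 0.71 (edgeR adjusted p = 0.554) and 2.48 ± 0.76 (edgeR adjusted p = 0.0764), and 3.11 ± 0.46 at 12h (edgeR adjusted p = 0.00239) without the 12h library of pig 2.

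LIFR, the chain shared by LIF and oncostatin M, was higher in the GS lungs with shallower libraries than in the other GS lungs. The part of sequencing depth in this was not tested. At 0h it was at 65.5 and 150 CPM in GS pigs 9 and 17 and at 37.9, 17.7 and 32.4 CPM in pigs 44, 55 and 77, and at 12h the values were 210 and 389 CPM against 41.9, 37.7 and 23.2 CPM. Pigs 9 and 17 were thus above the other GS lungs at 0h and further above them at 12h. Over all GS lungs LIFR was not called (0.64 ± 0.29 at 6h and 0.69 ± 0.29 at 12h, log2 ± SE, edgeR adjusted p = 0.12 and 0.0772). In fits added after seeing the data, the edgeR change at 6h was 1.49 ± 0.28 in pigs 9 and 17 (adjusted p = 0.0353). In pigs 44, 55 and 77 it was 0.18 ± 0.28 (edgeR adjusted p = 0.64). In PD, LIFR went from 22.6, 41.1, 8.95 and 12.4 CPM at 0h to 17.2, 203, 137 and 101 CPM at 12h in pigs 2, 3, 4 and 5, a change of 2.13 ± 0.67 (edgeR adjusted p = 0.0814). The LIFR and OSMR models overlap by 674 bases on opposite strands.

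IL6R, the chain that binds IL-6 itself, changed by 0.07 ± 0.20 at 6h and 0.12 ± 0.20 at 12h in GS and by -0.05 ± 0.45 and 0.11 ± 0.45 in PD (log2 ± SE, edgeR adjusted p = 0.824, 0.637, 0.974 and 0.913). Its level spanned 25.6 to 83.6 CPM over all GS libraries and 18.5 to 59.1 CPM over all PD libraries.

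IL6ST, the gp130 chain common to the whole family, rose in every GS lung. It went from 229, 320, 168, 159 and 191 CPM at 0h to 700, 650, 300, 356 and 369 CPM at 6h in GS pigs 9, 17, 44, 55 and 77. In PD pigs 2, 3, 4 and 5 it went from 349, 280, 113 and 187 CPM to 940, 400, 1046 and 502 CPM at 6h and 176, 1002, 1605 and 971 CPM at 12h. All 4 PD lungs were higher at 6h than at 0h, and at 12h pig 2 had dropped to 0.503 times its 0h value while the other lungs were 3.58 to 14.2 times higher. The edgeR change in GS was 1.10 ± 0.16 at 6h (adjusted p = 0.000652) and 1.0 ± 0.16 at 12h (adjusted p = 0.000599), the latter just under the 2-fold threshold and therefore not called. With all 27 libraries in 1 fit the 6h call was lost (1.11 ± 0.41, edgeR adjusted p = 0.094). In PD the 12h change of 1.94 ± 0.66 was not called either (edgeR adjusted p = 0.0998), and became 2.50 ± 0.43 (edgeR adjusted p = 0.00401) without the 12h library of pig 2.

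STAT3 itself changed by less than 2-fold in GS. It was at 273 to 366 CPM at 0h, 306 to 509 CPM at 6h and 306 to 558 CPM at 12h in GS, with changes of 0.49 ± 0.15 (edgeR adjusted p = 0.0311) and 0.40 ± 0.15 (edgeR adjusted p = 0.0555), both under 2-fold. In PD pigs 2, 3, 4 and 5 it went from 224, 216, 145 and 183 CPM at 0h to 213, 695, 705 and 449 CPM at 12h, a change of 1.22 ± 0.44 (edgeR adjusted p = 0.116). Pigs 3, 4 and 5 ended 2.44 to 4.87 times above their start and pig 2 did not rise.

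SOCS3, the feedback inhibitor that STAT3 switches on, was higher in every lung at 6h and 12h than at 0h. In GS pigs 9, 17, 44, 55 and 77 it went from 53.9, 44, 49.6, 41.1 and 29.7 CPM at 0h to 89.1, 91.4, 235, 320 and 308 CPM at 6h and 74.6, 116, 230, 321 and 359 CPM at 12h. In PD pigs 2, 3, 4 and 5 it went from 65.3, 23.4, 20.3 and 16.8 CPM to 157, 349, 234 and 257 CPM at 6h and 256, 93.1, 94.5 and 265 CPM at 12h. Within GS, pigs 9 and 17 stayed far below the other lungs at both times, and PD pigs 3 and 4 had lower values at 12h than at 6h. The edgeR log2 fold change was 1.93 ± 0.37 at 6h (adjusted p = 0.00278) and 1.99 ± 0.37 at 12h (adjusted p = 0.00155) in GS. In PD it was 3.21 ± 0.54 at 6h (edgeR adjusted p = 0.0548, not called) and 2.52 ± 0.52 at 12h (edgeR adjusted p = 0.0259). The PD call at 12h was lost on the compared times alone (2.51 ± 0.48, edgeR adjusted p = 0.11). It was also lost without pig 3, pig 4 or pig 5 (2.64, 2.64 and 2.05, edgeR adjusted p = 0.181, 0.0603 and 0.277). TK1, which overlaps the SOCS3 model on the same strand, changed by -0.61 to -0.02 on the log2 scale and was not called.

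**Figure D2:**
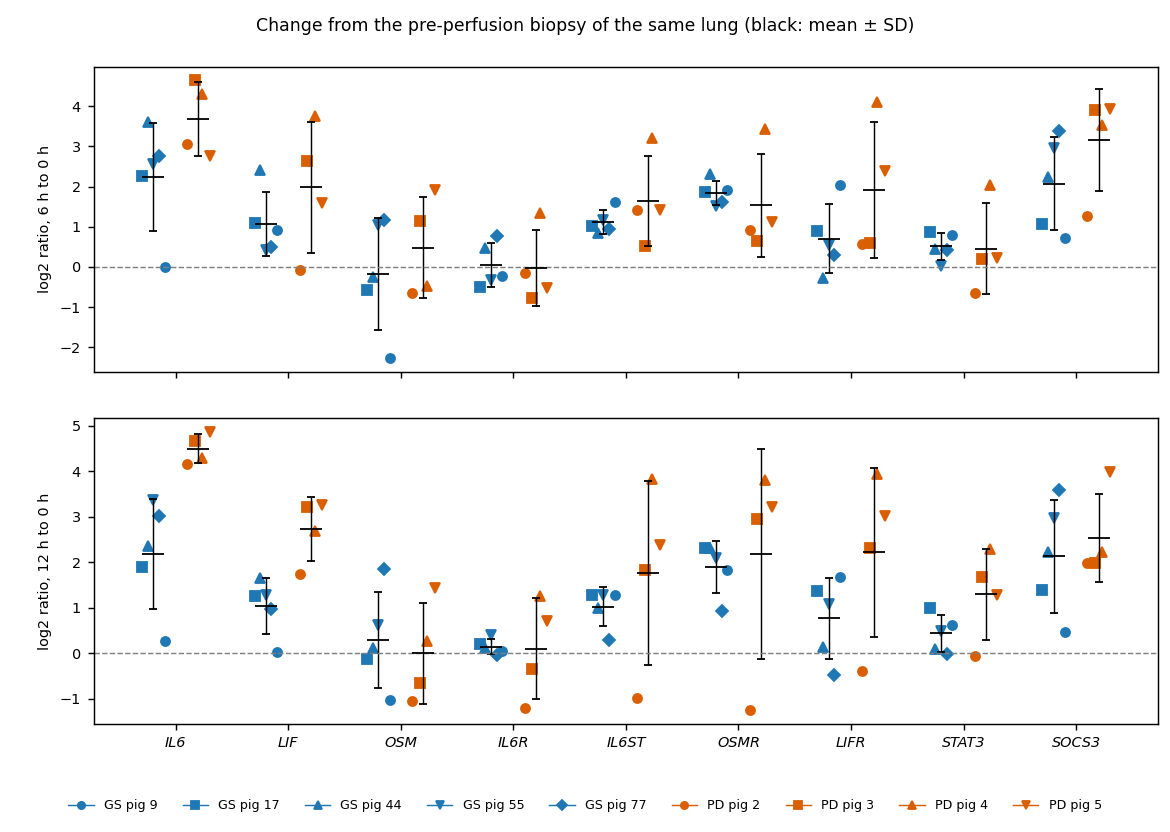
Change of 9 members (IL11 left out for its low counts) from the 0h biopsy of the same lung, as log2 ratio at 6h (upper panel) and at 12h (lower panel). Points are lungs, 5 of GS and 4 of PD, and black bars show mean ± SD. At 12h the PD lungs lie above the GS lungs for IL6 and LIF, and PD pig 2 lies below 0 for IL6ST, OSMR and LIFR.

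Counted over the members, 5 of 10 were called in GS at 6h (IL6, LIF, IL6ST, OSMR and SOCS3), all upward, against 11.1% of all 18594 genes tested. At 12h 4 of 10 were called (the same without IL6ST), against 15.7% of all genes. In PD, 9 members could be tested, of which 1 was called at 6h (IL6), against 0.142% of 15545 genes, and 3 at 12h (IL6, LIF and SOCS3), against 5.98%. The median log2 fold change of the members was 0.85 at 6h and 0.84 at 12h in GS and 1.56 and 2.13 in PD, where the median of all genes was -0.05, -0.08, -0.02 and -0.05.

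The PD counts depended on single lungs and on the fit, and so did the share of all genes called. At 12h, 7 members were called without PD pig 2 or with its 12h library alone left out (IL6ST, OSMR, LIFR and STAT3 in addition), 2 without pig 4 and 0 without pig 3 or without pig 5. Of all genes, 24.4% were called without pig 2, 26.2% without its 12h library, 2.55% without pig 4 and 0.0% without pig 3 or without pig 5. At 6h, 2 members were called without pig 2, against 0.624% of all genes, and without pig 3, pig 4 or pig 5 no gene of the whole table was called. Where a call was lost on leaving out 1 of these lungs, the fitted change at 12h was still 2.05 to 4.48. At 12h IL6 was higher by 4.48 without pig 3 and by 4.35 without pig 5 (log2, edgeR adjusted p = 0.104 and 0.148), LIF by 2.50 and 2.45 (edgeR adjusted p = 0.221 and 0.28) and SOCS3 by 2.64 and 2.05 (edgeR adjusted p = 0.181 and 0.277), while at 6h IL6 was higher by 3.43 to 4.01 with each of these lungs left out (edgeR adjusted p = 0.0991 to 0.272). Without the pig as a block, the PD counts were 2 at 6h and 6 at 12h, against 0.643% and 9.39% of all genes. In GS, 3 members were called at each time in pigs 9 and 17 alone (IL6ST, OSMR and LIFR) and 4 or 5 in pigs 44, 55 and 77, whose calls included IL6, LIF, OSMR and SOCS3 at both times and IL11 at 6h. At 6h and 12h 5.05% and 7.64% of all genes were called in pigs 9 and 17, and 14.6% and 18.9% in pigs 44, 55 and 77.

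**Figure D3:**
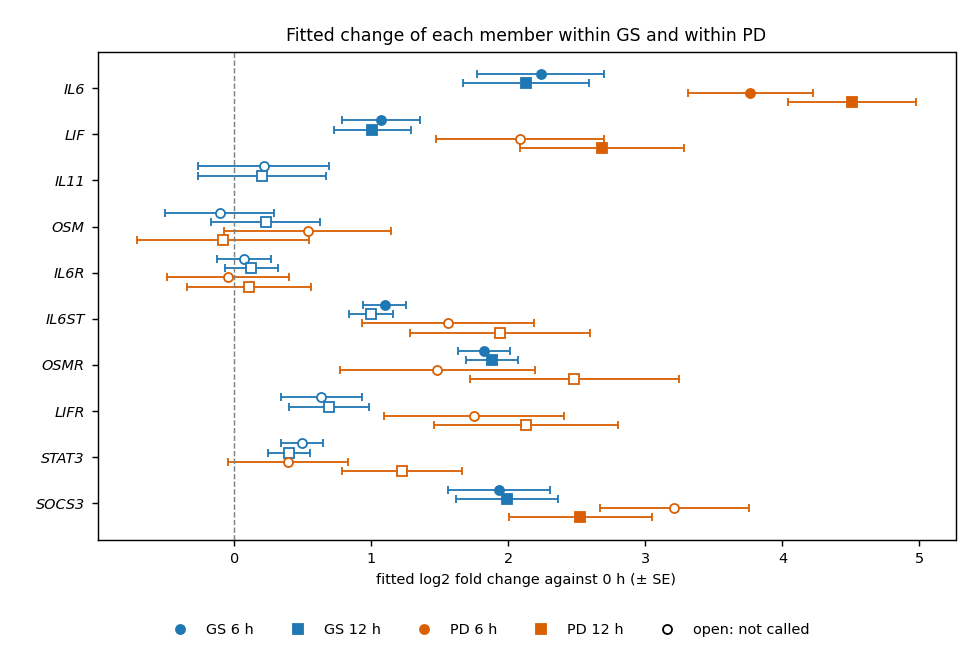
Fitted log2 fold change (horizontal axis, with bars of ± 1 SE) of each member (vertical axis) at 6h and 12h against 0h, within GS (5 lungs) and within PD (4 lungs). Filled symbols passed an adjusted p of 0.05 and a 2-fold change, and IL11 was not tested in PD. The PD estimates have the wider bars except for IL6, whose bars are about equal in both groups, and IL6 in PD at 12h is the largest at 4.51.

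Between 6h and 12h no member was called by edgeR at an adjusted p under 0.05, 0 of 10 in GS and 0 of 9 in PD, as for all genes in the same fits (0.0% in each group). DESeq2 also called 0 members in either group, with 0.0216% of all genes called in GS and 0.775% in PD. In neither group did a member reach an unadjusted edgeR p under 0.05 (0 of 10 and 0 of 9), whereas 882 of all 18594 genes tested in GS and 1562 of 15545 tested in PD did so. Without the 12h library of PD pig 2, 3 members had one (OSMR with 1.57 ± 0.44, STAT3 with 1.05 ± 0.40 and IL6ST with 0.92 ± 0.41, edgeR adjusted p = 0.18, 0.245 and 0.289), as did 16.3% of all genes. In 1 fit of all 27 libraries STAT3 alone had one (0.84 ± 0.33, edgeR adjusted p = 0.157), against 19.2% of all genes. Without the whole of pig 2 there were 3 (OSMR, SOCS3 and STAT3, against 15.5%), without pig 4 there were 2 (LIF and STAT3, against 13.6%) and without pig 3 or pig 5 there were 0 (4.15% and 2.55%). In PD the largest differences between 6h and 12h were 1.0 ± 0.72 for OSMR, 0.83 ± 0.43 for STAT3, 0.75 ± 0.41 for IL6 and -0.69 ± 0.51 for SOCS3 (log2 ± SE, edgeR adjusted p = 0.69, 0.546, 0.577 and 0.697), whereas in GS IL6, OSMR and SOCS3 differed by -0.11 ± 0.42, 0.06 ± 0.18 and 0.06 ± 0.35 (edgeR adjusted p = 1.0 for each).

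Whether dialysis altered these changes was asked by setting each lung's change from 0h in PD against that in GS. At 12h both IL6 and LIF had a larger change in every PD lung than in any GS lung. This held for 2 of the 10 members against 1.15% of all genes tested, and at 6h for 0 of 10 against 1.87%. The paper names both genes, from these same lungs, among those with a higher change in PD at 12h. The members were chosen with earlier results of these data known, so these shares do not test the family. The exact rank-sum test on regularized log values gave p = 0.0159 for both genes, the smallest that 4 against 5 lungs can give, which 4.04% of all genes had under 0.05, and an adjusted p of 0.711. At 6h no member reached an exact rank-sum p under 0.05 (6.04% of all genes did). In the edgeR interaction of group and time, the change of IL6 at 12h was larger in PD by 2.37 ± 0.66 (adjusted p = 0.629) and that of LIF by 1.63 ± 0.63 (adjusted p = 0.774), and at 6h that of IL6 by 1.53 ± 0.66 (adjusted p = 0.783). After adjustment 0 of 10 members and 0.0% of all genes were called at 6h and at 12h. With an unadjusted edgeR p under 0.05 there was 1 member at 6h (IL6) and 2 at 12h (IL6 and LIF), where 5.85% and 5.98% of all genes were, and DESeq2 called 0 at either time (0.0355% and 0.0638% of all genes). The unadjusted count at 6h was 4 without PD pig 2 (IL6, LIF, LIFR and SOCS3, against 17.1% of all genes). It was 0 without GS pig 9 (4.80%), PD pig 3 (8.84%) or PD pig 4 (5.97%), and without the pig as a block (4.07%). Without the 12h library of PD pig 2 the count at 12h was 6 (IL6ST, LIFR, OSMR and STAT3 in addition), but the share of all genes rose as well, to 23.3%, and again 0 members were called after adjustment. The difference in change at 12h then became 1.48 ± 0.41 for IL6ST, 1.94 ± 0.62 for LIFR, 1.21 ± 0.46 for OSMR and 1.07 ± 0.41 for STAT3 (edgeR adjusted p = 0.0872, 0.0998, 0.143 and 0.146), compared with 0.91 ± 0.63, 1.39 ± 0.71, 0.57 ± 0.73 and 0.78 ± 0.44 over all lungs (edgeR adjusted p = 0.921, 0.847, 0.95 and 0.87). That of IL6 stayed at 2.36 ± 0.69 (edgeR adjusted p = 0.09).

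The differences in change also varied with the GS lungs used. For IL6 at 12h the difference was 1.57 ± 0.58 against pigs 44, 55 and 77 and 3.57 ± 0.78 against pigs 9 and 17 (log2 ± SE, edgeR adjusted p = 0.697 and 1.0), that is, PD was higher with either set. At 6h that of IL6 was 0.74 ± 0.58 against pigs 44, 55 and 77 and 2.70 ± 0.78 against pigs 9 and 17 (edgeR adjusted p = 0.888 and 0.92). SOCS3 differed in direction between these sets at 12h, with -0.35 ± 0.65 against pigs 44, 55 and 77 and 1.57 ± 0.78 against pigs 9 and 17 (edgeR adjusted p = 0.953 and 1.0). LIF was higher by 1.44 ± 0.77 and 1.99 ± 0.91 (edgeR adjusted p = 0.82 and 1.0).

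Levels at the same time separate the part of such a difference that was present before perfusion. IL6 had a mean log2 CPM of 0.79 ± 0.86 in the 5 GS lungs and 1.11 ± 0.96 in the 4 PD lungs before perfusion (± SD, exact permutation p = 0.603), and of 2.96 ± 1.31 and 5.61 ± 0.72 after 12h (exact permutation p = 0.0159). LIF had a mean of 1.93 ± 0.51 in GS lungs and 0.77 ± 0.92 in PD lungs before perfusion (exact permutation p = 0.0714), and of 2.97 ± 0.72 and 3.50 ± 0.31 after 12h (exact permutation p = 0.254). The larger change of IL6 in PD therefore went with a higher level at 12h, and that of LIF with a lower level at 0h and a level at 12h that overlapped GS. Among the 10 members the groups did not overlap for STAT3 at 0h (32.4% of all genes), for none at 6h (19.9%) and for IL6 at 12h (20.2%). These permutation tests are unadjusted single values out of 30 (10 members at 3 times).

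Before perfusion, 2 of 10 members differed between the groups by edgeR, both lower in PD, against 40.6% of all genes tested. STAT3 differed by -0.61 ± 0.20 (log2, PD minus GS, edgeR adjusted p = 0.0261), at 145 to 224 CPM in PD and 273 to 366 CPM in GS. OSM differed by -1.61 ± 0.55 (edgeR adjusted p = 0.0338), at 0.287 to 1.42 CPM in PD and 1.24 to 4.81 CPM in GS. The other members differed by -1.47 (LIFR) to 0.41 (IL6) and were not called, although LIFR was called against GS pigs 9 and 17 alone (-2.35 ± 0.56, edgeR adjusted p = 0.0283). Neither call held under every choice. With only GS pigs 9 and 17 as the comparison OSM differed by -0.93 and STAT3 by -0.52 (log2, edgeR adjusted p = 0.389 and 0.225). In 1 fit of all 27 libraries OSM differed by -1.65 and STAT3 by -0.65 (edgeR adjusted p = 0.0954 and 0.144). For this comparison that fit had no block for the pig, so biopsies of 1 lung counted as independent.

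**Figure D4:**
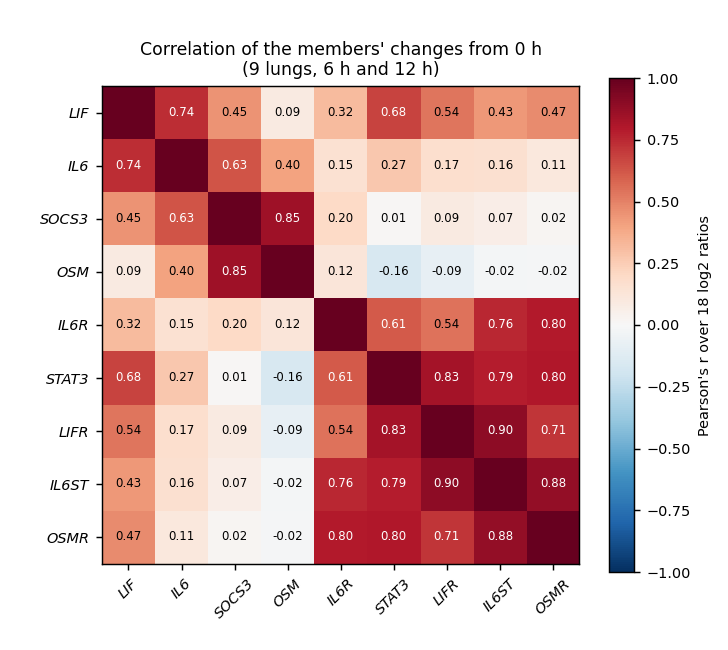
Pearson's r between the log2 ratios to 0h of 9 members, over 18 ratios (9 lungs at 6h and 12h). Both axes list the members, red marks positive and blue negative r. The receptor chains and STAT3 form a block with r of 0.54 to 0.90, and SOCS3 and OSM correlate at 0.85 with each other.

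The members did not move as 1 unit across lungs. Over the 18 log2 ratios to 0h, which share a 0h library within each lung and are given as a description, the receptor chains IL6R, OSMR and LIFR, the chain IL6ST and STAT3 went together, with r of 0.90 for IL6ST and LIFR, 0.88 for IL6ST and OSMR and 0.83 for STAT3 and LIFR. SOCS3 went with OSM (0.85) and IL6 (0.63) and had an r of 0.01 with STAT3. IL6 went with LIF (0.74) and had r of 0.11 to 0.17 with OSMR, IL6ST, IL6R and LIFR. At 12h PD pig 4 had the largest increases of the receptor chains. PD pig 2 had the lowest ratios of IL6R, OSMR and IL6ST at 12h, while its log2 ratio for LIFR (-0.39) was above that of GS pig 77 (-0.48). Among 14223 genes with a symbol, those most like IL6 were RGS16 (r = 0.86), C2CD4B (0.85), SNAI2 (0.82), PHLDA1 (0.81) and MTUS2 (0.81).

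Among 11 other ligands and receptors of the family, 9 were matched and tested. In GS 1 was called at 6h and 2 at 12h, against 11.1% and 15.7% of all genes, and in PD 0 and 1, against 0.142% and 5.98%. In GS, CLCF1, a ligand of the ciliary neurotrophic factor receptor complex, rose by 1.74 ± 0.25 at 6h and 1.93 ± 0.25 at 12h (log2 ± SE, edgeR adjusted p = 0.00062 and 0.000209), from 3.29 to 6.30 CPM at 0h to 8.58 to 35.1 CPM at 12h. IL31RA, a receptor chain related to gp130, fell by 1.82 ± 0.65 at 12h in GS (edgeR adjusted p = 0.0404), at counts of 50 or fewer. In PD only IL27, a cytokine subunit whose receptor also holds gp130, was called, with 3.23 ± 0.77 at 12h (edgeR adjusted p = 0.0361), from 0.975 to 3.11 CPM at 0h to 11.8 to 24.8 CPM. The median of the 9 genes was -0.22 and -0.37 in GS and 0.01 and -0.21 in PD at 6h and 12h.

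Of 18 kinases, phosphatases and regulators of the axis, 17 were tested. In GS 3 were called at 6h and 4 at 12h, where 11.1% and 15.7% of all genes were, and in PD 0 and 3, where 0.142% and 5.98% were. The median of the list was 0.22 and 0.45 in GS and 0.43 and 0.59 in PD. In GS, SOCS1 and CISH, which like SOCS3 limit JAK signalling, rose at 6h (1.40 ± 0.30 and 1.5 ± 0.28, edgeR adjusted p = 0.00491 and 0.00253) and at 12h (1.15 ± 0.30 and 1.49 ± 0.28, edgeR adjusted p = 0.0094 and 0.00156). STAT5A rose at 12h by 1.0 ± 0.24 (edgeR adjusted p = 0.00605). PTPN6, the phosphatase SHP-1 of blood cells, fell by 1.44 ± 0.25 at 6h and by 1.41 ± 0.25 at 12h (edgeR adjusted p = 0.00182 and 0.00118). In PD at 12h, STAT5A (1.95 ± 0.48) and SOCS1 (1.61 ± 0.38) rose and PTPN6 fell by 1.64 ± 0.38 (edgeR adjusted p = 0.0398, 0.0343 and 0.0328). PTPN6 is expressed in leukocytes, whose marker lists went different ways. In GS the median summed level from 0h to 12h went from 205 to 152 CPM for T and NK cells (4 of 5 markers matched) and from 89.1 to 60.8 CPM for B cells, but from 2037 to 2647 CPM for macrophages, from 254 to 255 CPM for monocytes and from 298 to 316 CPM for neutrophils. In PD it went from 135 to 101 CPM for T and NK cells, from 87.7 to 30.2 CPM for B cells, from 1681 to 1460 CPM for macrophages, from 235 to 255 CPM for monocytes and from 711 to 434 CPM for neutrophils. The part of these lists in the decrease of PTPN6 was not tested.

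Of 29 genes known from textbooks as STAT3 targets, 26 were matched. In GS 7 of 23 tested rose and 2 fell at 6h, and 8 rose and 2 fell at 12h, where 11.1% and 15.7% of all genes were called in either direction, with a median over the list of 0.13 and 0.24. The largest changes were in FOS, a transcription factor of early responses, which fell by 3.34 ± 1.02 at 6h and by 3.46 ± 1.03 at 12h (log2 ± SE, edgeR adjusted p = 0.0305 and 0.0206), and in TIMP1, a protease inhibitor, which rose by 2.01 ± 0.25 and 2.2 ± 0.25 (edgeR adjusted p = 0.000348 and 9.33e-05). BCL3, a partner of NF-kB, rose by 1.97 ± 0.24 and 1.88 ± 0.24, IL4R by 1.94 ± 0.26 at 12h, and CRP, an acute phase protein of the liver, fell by 1.98 ± 0.44 at 6h (edgeR adjusted p = 0.000305, 0.00018, 0.000265 and 0.0064). In PD 0 of 21 were called at 6h and 6 at 12h, all upward (BCL3, PIM1, MYC, TIMP1, IL4R and ICAM1), where 0.142% and 5.98% of all genes were called, with a median of 0.71 and 0.85. All 6 were also called in GS at 12h. The largest in PD were IL4R (2.76 ± 0.47), TIMP1 (2.63 ± 0.47), the transcription factor MYC (2.62 ± 0.45) and the adhesion molecule ICAM1 (2.59 ± 0.38), with edgeR adjusted p of 0.0176, 0.0179, 0.0176 and 0.0149. Many of these genes also answer to NF-kB or to glucocorticoids, and the list does not separate these inputs.

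**Figure D5:**
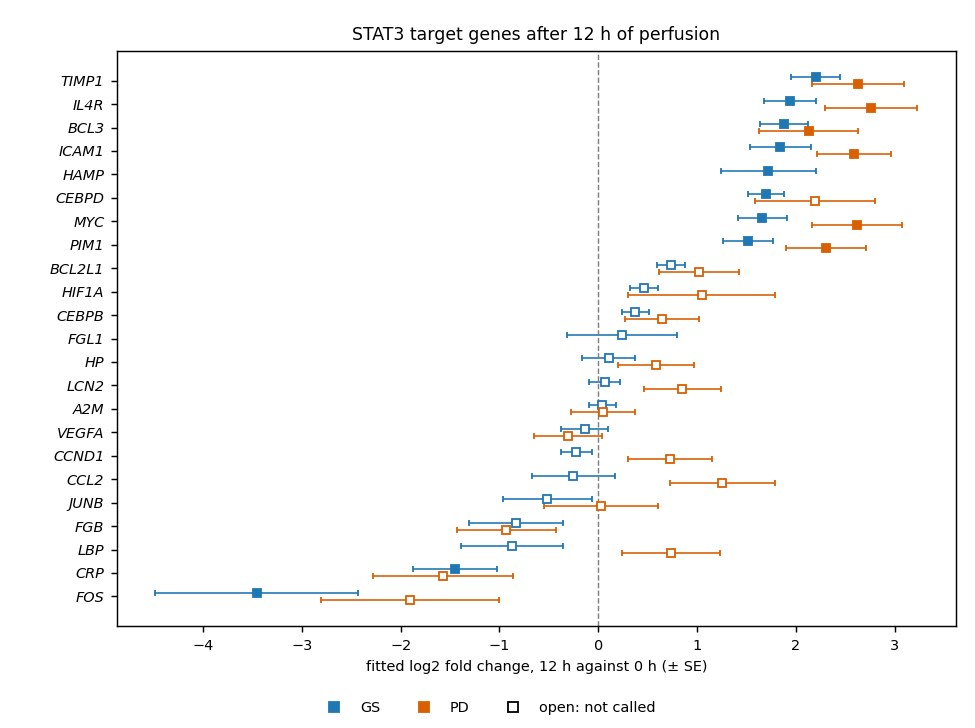
Fitted log2 fold change at 12h against 0h (horizontal axis, bars of ± 1 SE) of the 23 STAT3 target genes tested in GS (vertical axis), within GS (5 lungs) and within PD (4 lungs, 21 genes tested). Filled symbols were called. TIMP1, IL4R, BCL3, ICAM1, MYC and PIM1 were called upward in both groups, and CRP and FOS fell in GS.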

How the data were processed

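RNA of 27 lung biopsies was sequenced as poly(A) libraries. The values used are the gene counts that the authors deposited, whole numbers for 31908 Ensembl genes of Sscrofa11.1. The submitters' processing notes name bcl2fastq (2.2.18.12), cutadapt (1.15), TopHat2 (2.0.14), featureCounts from Subread (1.6.0) and DESeq2 (1.18.1). Whether strand was used in counting, and how multimapping reads were treated, is not given in the sources used here, so overlapping genes may share reads. RNA was extracted with one of a pair of kits, not given per sample. Depth was 14650700 to 67522703 counts per library. The floor was set at 3 counts, no more than 0.114 CPM in any GS library or 0.205 CPM in any PD library, and covers counting error only.

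Groups, pigs and times were read from the sample labels. Each group was fitted in edgeR 4.0.16 (R 4.3.3, limma 3.58.1) after filterByExpr and TMM scaling, with robust two-sided quasi-likelihood F tests and the pig as a block, since the 3 biopsies of a number come from 1 lung and the study used a paired design. Between residuals of the same pig, r averaged 0.513 for GS (0.344 to 0.73) and 0.112 for PD (-0.265 to 0.462). Benjamini-Hochberg adjustment ran over all genes tested. Calls against 0h needed an adjusted p below 0.05 together with a change of 2-fold or more, and other calls the adjusted p alone. CPM is TMM-scaled, and ratios between times add 0.5 to each count. Changes of PD and GS were compared by the interaction of group and time and by exact two-sided rank-sum tests on regularized log values (DESeq2 1.42.0). Scripts were tested on simulated data.

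Named genes are the members, the called genes among the 4 largest changes of each list and comparison, and the 5 genes most like IL6. Genes that overlap a member and some markers are named as well. The members and lists were chosen with earlier results of these data known. Among the lists CNTF, IL31, SOCS2, BATF, SERPINA3 and MUC1, and of the markers S100A9 (neutrophils) and GZMB (T and NK cells), were not matched to a symbol. Alternatives tried were a fit without the block, one on the compared times alone, one over all libraries, DESeq2, its size factors, no filter, no fold threshold against 0h, a fold threshold at 0h, log2 CPM in place of regularized log values and each pig left out. Added after seeing the data were fits with only GS pigs 9 and 17, with only GS pigs 44, 55 and 77, and without the library of PD pig 2 at 12h. Promoter windows were cut from the RefSeq annotation of Sscrofa11.1, the build of the counts. Perfusate measurements and protein sequences were not used here, and 1 promoter window is not reported here.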

Additional observations from a re-analysis of the deposited data

Results flagged for a closer look

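Out of 100 sets of 4 or 5 lungs tested for a lung far from the others (chance gives about 1 in 20), 4 held one, all among the PD ratios to 0h. PD pig 4 had an OSMR log2 ratio of 3.43 at 6h, above the other PD lungs, and PD pig 2 one of -1.25 at 12h, below them. PD pig 2 had the lowest SOCS3 log2 ratio at 6h (1.26), and PD pig 5 the highest at 12h (3.97). The change at 12h was larger in every PD lung than in every GS lung for IL6, by 2.37 on the log2 scale in the edgeR interaction, and for LIF, by 1.63, and neither passed the adjustment over all genes (adjusted p = 0.629 and 0.774 by edgeR).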

How the results depend on the processing

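Of 150 recomputed counts of called members, 120 stayed within 1.5 times the reported count. The 120 include the counts of 0 between 6h and 12h and for the interaction, so they are no measure of stability for the other counts. In GS at 6h the count of 5 fell to 3 with only pigs 9 and 17 (5.05% of all genes called) and with all libraries in 1 fit (6.82%). With each pig left out it was 4 or 5 at 6h (7.20% to 11.4%) and 3 to 5 at 12h (11.6% to 18.8%). Without the fold threshold the count was 6 at 6h and 5 at 12h in GS, where 5295 and 7136 of all 18594 genes were called. The PD counts then stayed at 1 and 3, where 22 and 930 of all 15545 genes were called. In PD at 6h the count of 1 (0.142% of all genes) became 2 without the replicate block (0.643%), with only the time points compared (0.919%), without the filter (0.390%) and without the 12h library of pig 2 (1.59%), 3 with DESeq2 (1.54%) and in 1 fit (2.68%), and 0 to 2 with each pig left out (0.0% to 0.624%). In PD at 12h the count of 3 (5.98% of all genes) became 6 without the replicate block (9.39%), 1 with only the time points compared (0.0268%), 7 with DESeq2 (9.52%), in 1 fit (18.5%) and without the 12h library of pig 2 (26.2%), and 0 to 7 with each pig left out (0.0% to 24.4%). At 0h the count of 2 (40.6% of all genes) became 0 in 1 fit of all libraries without the block (30.8%). It became 1 with only GS pigs 9 and 17 (LIFR, in place of OSM and STAT3, 14.2%). With each pig left out it was 0 to 4 (34.2% to 43.6%). With a 2-fold threshold in addition it was 1, for which the share of all genes is not given here. With each pig left out, the rank-sum count of 2 at 12h (4.04% of all genes) was 2 to 6 (2.69% to 16.7%). That of 0 at 6h (6.04%) was then 0 to 1 (3.73% to 13.8%). Counts of 0 between 6h and 12h and for the interaction stayed at 0 in every setting, where up to 2.75% and 1.37% of all genes were called. The cause of these shifts was not tested.

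Directions turned only for members that were not called in that comparison. With each pig left out in turn, the log2 fold change ranged in GS at 6h from -0.19 to 0.70 for IL11, -0.46 to 0.34 for OSM and -0.12 to 0.20 for IL6R, and in GS at 12h from -0.11 to 0.65 for IL11 and -0.17 to 0.61 for OSM. In PD it ranged at 6h from -0.43 to 0.19 for IL6R and -0.10 to 0.81 for STAT3, and at 12h from -0.56 to 0.36 for OSM and -0.16 to 0.46 for IL6R. For PD against GS, the difference in change ranged at 6h from -0.55 to 0.11 for IL6R and -0.64 to 0.30 for STAT3, at 12h from -0.81 to 0.16 for OSM and -0.34 to 0.31 for IL6R, and the difference at 0h from -0.022 to 0.68 for IL6, -0.10 to 0.39 for IL6ST and -0.16 to 0.42 for OSMR. Without the replicate block OSM in GS at 6h was 0.24, IL6R in PD at 6h 0.015, and the difference in change of STAT3 at 6h 0.11. With only GS pigs 9 and 17, IL11 was -1.56 and -0.62, OSM at 12h -0.63 and IL6R at 6h -0.34, the difference in change was 0.28 for IL6R at 6h and 0.53 for OSM at 12h, and IL6ST at 0h differed by -0.24. With only GS pigs 44, 55 and 77, OSM was 0.61 at 6h, and the difference in change was -0.89 for IL11 (0.18 over all lungs), -0.043 for OSM and 0.081 for STAT3 at 6h and -0.35 for SOCS3 at 12h. Without the 12h library of PD pig 2, OSM at 12h was 0.10 and the difference in change of IL6R 0.30. Under DESeq2 size factors the median of all genes moved by at most 0.06. IL11 and OSM had counts down to 0 and 3 in PD, where the libraries were shallower.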
